A study of Rattus norvegicus with 16 samples.

Results

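Fatty acid uptake and oxidation was examined here as a set of 30 genes. They have a role in the route that brings long-chain fatty acids into a muscle cell and burns them. The genes were chosen with earlier results of these data known, so they were not tested as a set. Of the 30 genes, 28 were measured by a probe set that the array annotation pairs with exactly 1 gene symbol, out of 17245 genes measured in that way. Cd36, which codes for the main fatty acid translocase of the sarcolemma, and Fabp3, which codes for the fatty acid carrier protein of the heart cytosol, have only a probe set shared with other symbols and were not analysed here.

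The samples were right ventricular wall of Wistar rats, all male and of 160 to 180 g body weight, and the RNA of each was measured on 1 of 16 arrays. The labels name 3 conditions, RVF+ (5 arrays, numbered 8 to 12), RVF (4 arrays, 13 to 16) and CON (7 arrays, 1 to 7). Rats had either a sham operation or a band around the pulmonary artery, which makes the right ventricle pump against a higher pressure, but the operation is not given sample by sample. The labels do not spell out RVF+, RVF or CON, and give no age, time after surgery, genotype or batch. Nothing says that the samples of a group are separate animals, so each p-value measures the spread between these arrays, which may be technical. All levels below are log2 of the RMA intensity (robust multi-array average), all differences are on that log2 scale, and a difference of 1 is a 2-fold change. A difference passed when its two-sided limma p-value, adjusted by the Benjamini-Hochberg method over all 17245 genes, was under 0.05.

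The healthy heart draws much of its energy from long-chain fatty acids. These are freed from circulating triglyceride at the vessel wall, cross the sarcolemma, are joined to coenzyme A, and enter mitochondria as carnitine esters, a step that malonyl-CoA blocks. Inside, a repeating set of reactions shortens the chain by oxidation, hydration, a second oxidation and cleavage, and passes electrons through electron transfer flavoprotein to the respiratory chain. Many genes of the route are known targets of the nuclear receptors PPAR and ERR, which bind DNA at copies of a short half-site.

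Promoter windows are shown for a pair of genes whose windows overlap and for 3 of the 8 genes whose windows hold the nuclear receptor half-site. Any link between these windows and the differences from CON was not tested. RefSeq windows on assembly GRCr8, from 250 bases before to 50 bases after a start site, were given for 25 of the 30 genes. None was used here for Lpl, Cpt1b, Acadl, Acaa2 and Decr1. For some genes, such as Eci2, Slc27a1 and Acsl1, the start site of the window lies inside the gene and not at its listed start. Hadha and Hadhb code for the alpha and beta subunits of the mitochondrial trifunctional protein. They lie head to head on chromosome 6, with 300 bases between the start sites of their windows. Their windows share 200 bases, shown in capitals in the Hadha window (chr6:31907551-31907850, plus strand).
Hadha: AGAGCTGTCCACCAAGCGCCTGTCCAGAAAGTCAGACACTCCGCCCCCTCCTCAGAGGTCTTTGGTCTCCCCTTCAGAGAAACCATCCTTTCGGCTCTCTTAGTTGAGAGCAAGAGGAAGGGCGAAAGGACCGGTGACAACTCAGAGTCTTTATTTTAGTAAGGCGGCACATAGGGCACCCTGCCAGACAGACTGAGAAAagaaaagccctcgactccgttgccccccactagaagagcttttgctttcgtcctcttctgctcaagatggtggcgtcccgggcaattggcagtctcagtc
The Hadhb window is chr6:31907451-31907750 on the minus strand. In the next windows, capitals mark the half-site AGGTCA or its reverse complement TGACCT. Eci1 (chr10:13961000-13961299, plus strand) codes for a mitochondrial enoyl-CoA isomerase, Acadvl (chr10:55236656-55236955, minus strand) for very long-chain acyl-CoA dehydrogenase, and Ucp3 (chr1:164227660-164227959, plus strand) for a mitochondrial uncoupling protein.
Eci1: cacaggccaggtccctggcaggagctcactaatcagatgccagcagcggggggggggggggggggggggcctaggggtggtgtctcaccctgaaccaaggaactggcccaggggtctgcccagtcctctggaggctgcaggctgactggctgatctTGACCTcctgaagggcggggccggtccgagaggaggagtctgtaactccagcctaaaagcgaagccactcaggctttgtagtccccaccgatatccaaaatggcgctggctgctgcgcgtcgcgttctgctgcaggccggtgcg
Acadvl: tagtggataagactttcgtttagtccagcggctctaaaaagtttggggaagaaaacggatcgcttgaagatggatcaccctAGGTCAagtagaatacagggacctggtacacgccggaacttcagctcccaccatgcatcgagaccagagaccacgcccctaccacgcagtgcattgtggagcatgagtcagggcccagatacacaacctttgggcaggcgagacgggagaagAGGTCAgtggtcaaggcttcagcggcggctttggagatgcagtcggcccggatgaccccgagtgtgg
Ucp3: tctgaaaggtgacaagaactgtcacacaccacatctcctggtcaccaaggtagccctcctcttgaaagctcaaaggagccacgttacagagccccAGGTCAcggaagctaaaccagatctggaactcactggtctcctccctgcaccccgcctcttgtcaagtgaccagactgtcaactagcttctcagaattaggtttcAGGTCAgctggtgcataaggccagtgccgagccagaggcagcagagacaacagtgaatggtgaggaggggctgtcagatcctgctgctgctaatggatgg
Read on both strands, the half-site occurred in 8 of the 25 windows (32.0%), those of Slc27a1, Acacb, Acadvl, Echs1, Hadhb, Eci1, Eci2 and Ucp3, against 16.2% of all 33469 windows of that length and 13.5% of 15570 windows of the other genes tested. The letters TCA directly before AGGTCA, which make the longer element bound by ERR and contain the half-site, were in 0 of the 25 windows and in 0.433% of all windows. An exact direct repeat of AGGTCA with 1 base between the copies, a form bound by PPAR, was in 0 of the 25 and in 0.0538% of all. Exact matches to these longer elements are so rare that 0 of 25 windows cannot tell the members from other genes. Copies with mismatches were not searched for. A match describes letters and not a bound site, and these windows hold no distal elements.

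Nearly all of the 28 measured genes were lower in both conditions than in CON. In RVF+, 27 of the 28 measured genes fell and 0 rose, where 13.6% of all genes fell and 14.1% rose. In RVF, 25 of 28 fell and 0 rose, where 8.29% of all genes fell and 8.86% rose. The median difference over the 28 genes was -0.862 in RVF+ (range -1.43 to -0.30), against -0.0118 over all genes, and -0.719 in RVF (range -1.37 to -0.25). Both comparisons use the same 7 CON arrays, so their likeness is not independent. With arrays centred on their medians, the calls of RVF+ against CON over all genes were 3004 lower and 1998 higher, against 2348 lower and 2423 higher as reported, and 28 of 28 members fell.

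The groups were mostly apart array by array. For 24 of the 28 genes every RVF+ array was below every CON array, which held for 7.63% of all genes. For 26 of 28 every RVF array was below every CON array, which held for 9.00% of all genes. Cpt1a and Ucp3 overlapped with CON in both conditions, and Acadl and Decr1 overlapped with CON in RVF+.

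**Figure D1:**
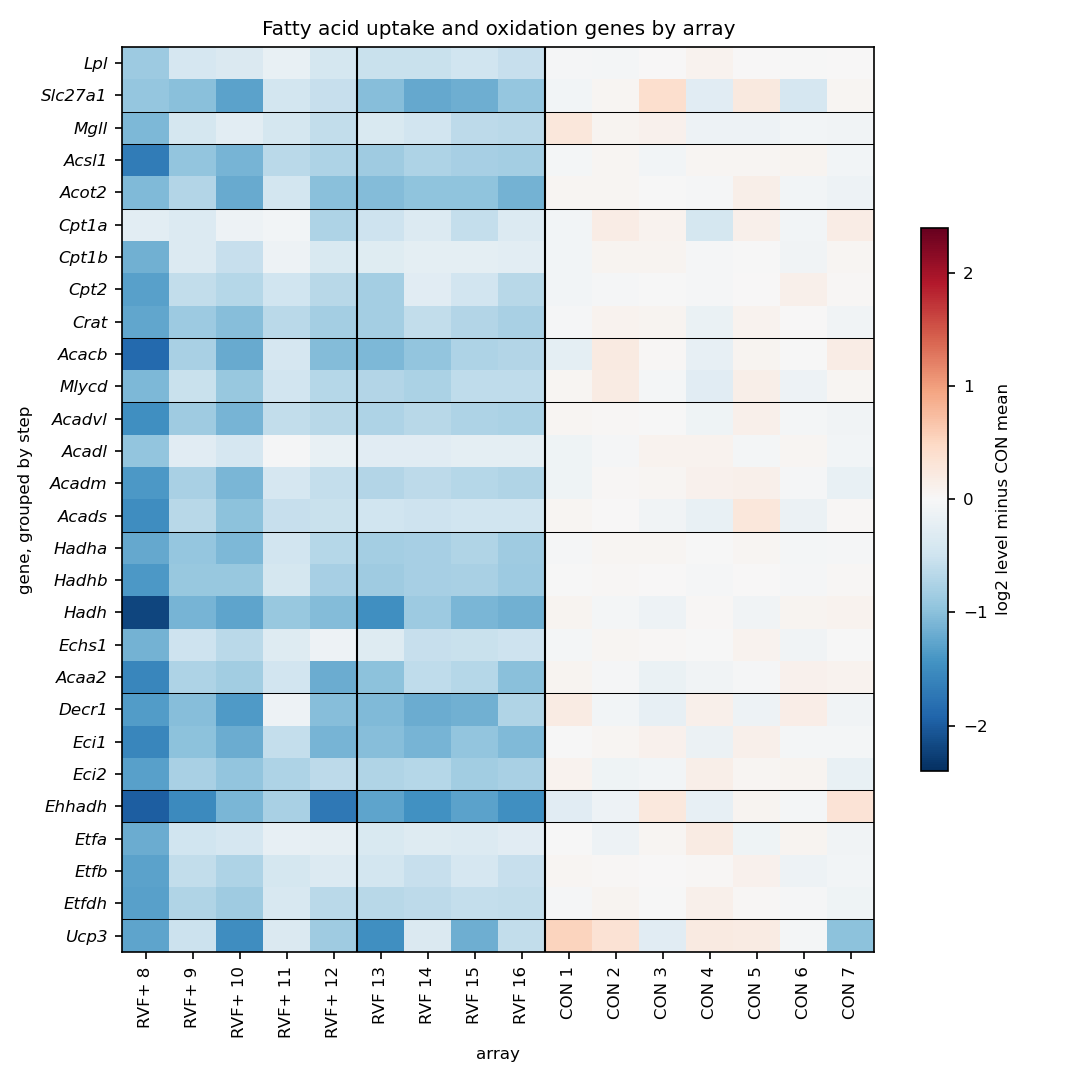
Log2 level of each of the 28 measured genes (rows, ordered by step) in each of the 16 arrays (columns, RVF+ 8 to 12, RVF 13 to 16, CON 1 to 7), drawn as the colour-coded difference from the mean of the CON arrays. RVF+ 8 holds the lowest RVF+ value for 23 of 28 genes and RVF+ 11 the highest for 23 of 28, while the 4 RVF columns look alike.

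The RVF+ arrays differed among themselves, with RVF+ 8 lowest and RVF+ 11 highest. Averaged over the 28 genes, the deviation from the CON mean was -1.30 in RVF+ 8, -0.725 in RVF+ 9, -0.898 in RVF+ 10, -0.429 in RVF+ 11 and -0.711 in RVF+ 12. It was -0.773, -0.681, -0.714 and -0.715 in RVF 13 to 16, and between -0.0424 and 0.0545 in CON. Every RVF+ and RVF array was thus below every CON array on this average. Without RVF+ 8, 27 of 28 genes fell in RVF+ with a median of -0.765, and 28 of 28 fell in RVF. The wider spread of RVF+ was seen gene by gene, with a median SD of 0.358 in RVF+ (0.221 without RVF+ 8), 0.0755 in RVF and 0.0951 in CON. Over all genes the median SD was 0.192 in RVF+, 0.137 in RVF and 0.147 in CON. The SD was larger in RVF+ than in RVF for 27 of the 28 genes, and for 25 without RVF+ 8.

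Of the 4 uptake genes, Lpl and Slc27a1 were measured, and both fell in both conditions. Lpl, which codes for the lipase that frees fatty acids from circulating triglyceride, fell by 0.45 ± 0.09 (SE) in RVF+ (adjusted p = 0.00109) and by 0.53 ± 0.09 in RVF (adjusted p = 0.000814). Slc27a1 codes for a fatty acid transport protein of the cell surface. Its level was 7.36, 7.27, 7.0, 7.83 and 7.73 in RVF+ 8 to 12, and 7.26, 7.05, 7.1 and 7.36 in RVF 13 to 16, against 7.88 at the lowest, 8.32 at the median and 8.68 at the highest of 7 CON arrays. All 9 RVF+ and RVF arrays were below the lowest CON array, with RVF+ 11 nearest to it. Slc27a1 fell by 0.84 ± 0.15 in RVF+, which is 1.79-fold lower (adjusted p = 0.000417), and by 1.09 ± 0.16 in RVF, 2.12-fold lower (adjusted p = 0.000127).

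Mgll, Acsl1 and Acot2, the members for release and activation of fatty acids inside the cell, fell in both conditions. Mgll codes for monoglyceride lipase, which frees the last fatty acid of a stored triglyceride. It stood at 7.23, 7.88, 8.05, 7.88 and 7.72 in RVF+ 8 to 12 and at 7.94, 7.86, 7.69 and 7.67 in RVF 13 to 16, against 8.18, 8.24 and 8.59 (lowest, median, highest) in CON. No RVF+ or RVF array reached the lowest CON array, and RVF+ 8 was far below the rest of its group. Mgll fell by 0.56 ± 0.12 in RVF+ (adjusted p = 0.0017) and by 0.52 ± 0.13 in RVF (adjusted p = 0.00777). Acsl1, which codes for the main long-chain acyl-CoA synthetase of heart muscle, fell by 1.02 ± 0.13 in RVF+ (2.03-fold, adjusted p = 1.7e-05) and by 0.80 ± 0.13 in RVF (1.74-fold, adjusted p = 0.000473).

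Acot2 codes for a mitochondrial thioesterase that runs activation in reverse, splitting acyl-CoA into fatty acid and coenzyme A. Its levels were 9.57, 9.93, 9.42, 10.19 and 9.63 in RVF+ 8 to 12, and 9.59, 9.66, 9.67 and 9.49 in RVF, against 10.51, 10.62 and 10.77 (lowest, median, highest) in CON. The gap between the highest RVF+ array and the lowest CON array was wide, and RVF+ 8 was not the lowest array here. Acot2 was 1.84-fold lower in RVF+ (difference -0.88 ± 0.11, adjusted p = 1.29e-05) and 2.04-fold lower in RVF (-1.03 ± 0.11, adjusted p = 9.69e-06).

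In the carnitine shuttle 3 of 4 genes fell in RVF+ and 3 of 4 in RVF, and those without a call were the 2 genes of the outer membrane. Cpt1a and Cpt1b code for the liver-type and muscle-type forms of carnitine palmitoyltransferase 1, which forms acylcarnitine on the outer membrane, the step that malonyl-CoA inhibits. Cpt1a read 8.43, 8.35, 8.55, 8.61 and 7.94 in RVF+ 8 to 12 and 8.18, 8.35, 8.1 and 8.36 in RVF, against 8.25, 8.76 and 8.86 (lowest, median, highest) in CON. The groups overlapped through CON 4, the lowest CON array, whose value of 8.25 is well under the 8.61 to 8.86 of the other CON arrays. Cpt1a was the gene that did not pass in RVF+ (-0.30 ± 0.12, 95% interval -0.56 to -0.05, adjusted p = 0.0679), and it fell by 0.43 ± 0.13 in RVF (adjusted p = 0.0265). Over the alternatives the adjusted p in RVF+ ran between 0.0154, without CON 4, and 0.204. The RVF call was lost without CON 2 (adjusted p = 0.052), CON 7 (0.0502), RVF 13 (0.0798) or RVF 15 (0.0902).

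Cpt1b passed in RVF+ and not in RVF. It read 9.82, 10.65, 10.42, 10.85 and 10.61 in RVF+ 8 to 12 and 10.68, 10.73, 10.73 and 10.71 in RVF, against 10.88, 10.96 and 11.03 in CON (lowest, median, highest). All RVF+ and RVF arrays were below all CON arrays, RVF+ 11 by a small margin. Cpt1b fell by 0.49 ± 0.12 in RVF+ (adjusted p = 0.00553), and its difference in RVF was -0.25 ± 0.13 (adjusted p = 0.207). Its SD was 0.391 in RVF+ and 0.0224 in RVF, and without RVF+ 8 the RVF difference passed at an adjusted p of 0.0161. Neither gene passed in RVF+ against RVF (Cpt1a 0.13, adjusted p = 0.90, and Cpt1b -0.24, adjusted p = 0.765).

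The other enzymes of the shuttle passed in both conditions. Cpt2, which turns acylcarnitine back into acyl-CoA in the matrix, fell by 0.75 ± 0.12 in RVF+ (adjusted p = 0.000193) and by 0.55 ± 0.13 in RVF (adjusted p = 0.00634). Crat codes for carnitine acetyltransferase, which buffers acetyl groups onto carnitine. Its level was 9.54, 9.9, 9.75, 10.13 and 9.96 in RVF+ 8 to 12, and 9.97, 10.18, 10.08 and 10.01 in RVF, against 10.62, 10.78 and 10.87 (lowest, median, highest) in CON. RVF+ and RVF overlapped with each other, and neither overlapped with CON. With a difference of -0.92 ± 0.09 in RVF+ (1.89-fold lower), Crat had the smallest adjusted p of the 28 genes in that comparison (2.08e-06), and in RVF it fell by 0.72 ± 0.09 (adjusted p = 4.99e-05).

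Acacb and Mlycd, members that act against each other on malonyl-CoA, fell in both conditions, while Acaca, the other acetyl-CoA carboxylase and no member, gave -0.07 in RVF+ (adjusted p = 0.62) and -0.10 in RVF (adjusted p = 0.511). Acacb codes for acetyl-CoA carboxylase 2, which makes malonyl-CoA at the mitochondrial surface, and fell by 1.06 ± 0.17 in RVF+ (2.09-fold, adjusted p = 0.000231) and by 0.87 ± 0.19 in RVF (1.83-fold, adjusted p = 0.00335). Mlycd codes for malonyl-CoA decarboxylase, which destroys it. Mlycd stood at 6.97, 7.51, 7.15, 7.6 and 7.36 in RVF+ 8 to 12 and at 7.34, 7.3, 7.45 and 7.44 in RVF, against 7.77, 8.1 and 8.24 in CON (lowest, median, highest). Again the highest RVF+ array, RVF+ 11, stayed below the lowest CON array. The fall was 0.73 ± 0.11 in RVF+ (adjusted p = 7.37e-05) and 0.66 ± 0.11 in RVF (adjusted p = 0.000538).

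**Figure D2:**
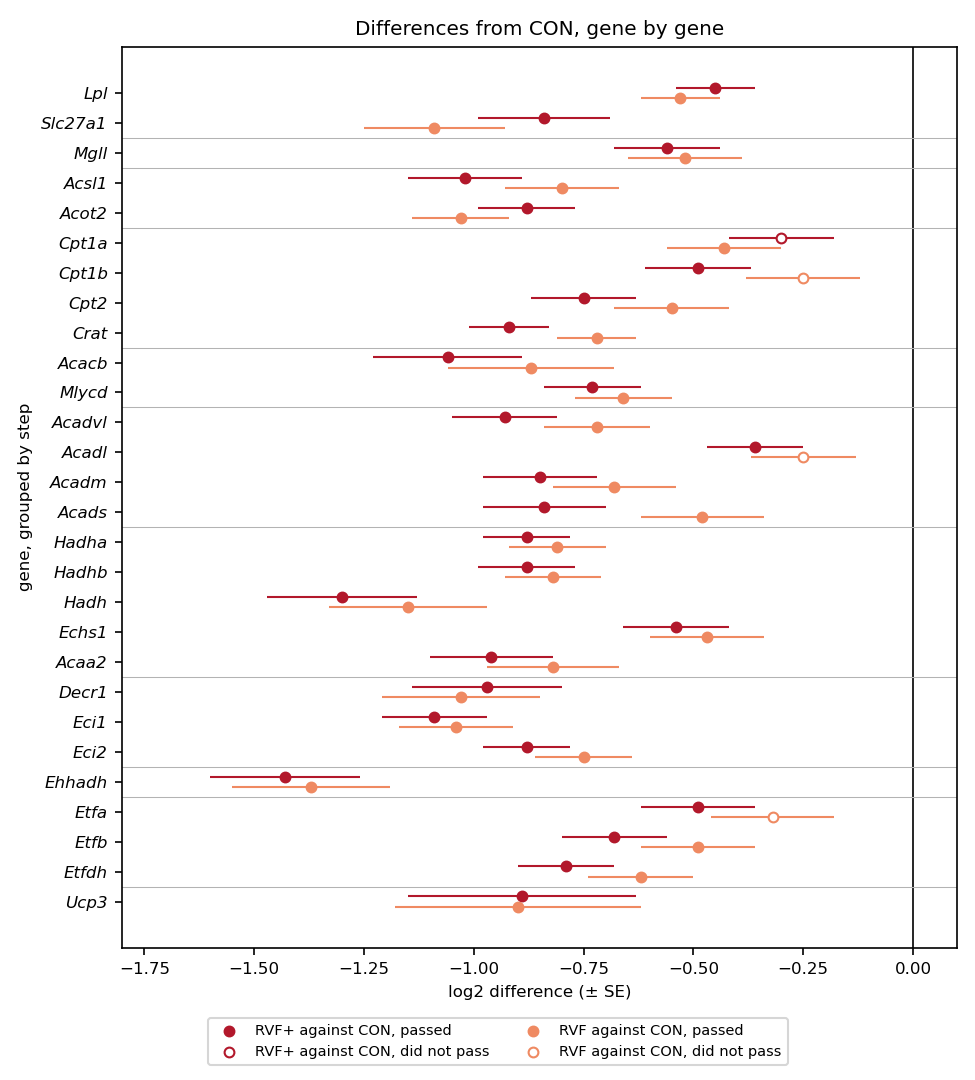
Log2 difference from CON (horizontal axis, ± SE) of the 28 measured genes (vertical axis, grouped by step) in RVF+ and RVF, with filled points for those that passed and open points for those that did not. All 56 points lie below 0, between -1.43 and -0.25, and 4 are open, Cpt1a in RVF+ and Cpt1b, Acadl and Etfa in RVF.

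The acyl-CoA dehydrogenases, which take the first oxidation step and differ in the chain length they prefer, fell in RVF+ in 4 of 4 cases and in RVF in 3 of 4. Acadvl acts on very long chains at the inner membrane. Its level was 8.96, 9.57, 9.32, 9.84 and 9.77 in RVF+ 8 to 12, and 9.69, 9.77, 9.69 and 9.67 in RVF, against 10.32, 10.42 and 10.56 (lowest, median, highest) in CON. No overlap with CON was seen, and the 4 RVF arrays lay close to each other. Acadvl fell by 0.93 ± 0.12 in RVF+ (1.91-fold, adjusted p = 1.91e-05) and by 0.72 ± 0.12 in RVF (1.65-fold, adjusted p = 0.000612).

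Acadm, the medium-chain enzyme, fell by 0.85 ± 0.13 in RVF+ (adjusted p = 0.000103) and by 0.68 ± 0.14 in RVF (adjusted p = 0.00194). Acadl, the long-chain enzyme, changed least of the 4, with a fall of 0.36 ± 0.11 in RVF+ (adjusted p = 0.0252) and a difference of -0.25 ± 0.12 in RVF (adjusted p = 0.188). In RVF+ the Acadl call was lost with quantile normalization (adjusted p = 0.0687), with only the 2 groups fitted (0.0506) and without RVF+ 10 (0.0508), over a range of 0.0065 to 0.0687. In RVF it was gained without RVF+ 8 (0.0182).

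Acads, the short-chain enzyme, read 7.59, 8.42, 8.1, 8.54 and 8.56 in RVF+ 8 to 12 and 8.62, 8.6, 8.61 and 8.61 in RVF, against 8.92, 9.1 and 9.37 in CON (lowest, median, highest). It was the only one of the 28 genes for which RVF+ and RVF did not overlap, every RVF+ array being lower. That order held for 1.15% of all genes, and the opposite order for 0.586%. Acads fell by 0.84 ± 0.14 in RVF+ (adjusted p = 0.000191) and by 0.48 ± 0.14 in RVF (adjusted p = 0.0307), while RVF+ against RVF gave -0.37 ± 0.16 (95% interval -0.69 to -0.04, adjusted p = 0.623). The RVF call was lost without any 1 of the 4 RVF arrays (adjusted p = 0.0662 to 0.0707) and without CON 5 (0.0568).

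The later steps of the spiral fell in 5 of 5 genes in both conditions. Hadha carries the hydratase and long-chain dehydrogenase activities of the trifunctional protein. It was measured at 10.16, 10.45, 10.31, 10.93 and 10.7 in RVF+ 8 to 12, and at 10.57, 10.58, 10.65 and 10.52 in RVF, against 11.34, 11.37 and 11.43 (lowest, median, highest) in CON. The CON arrays were tightly grouped and the RVF+ and RVF arrays all lay below them. Hadha fell by 0.88 ± 0.10 in RVF+ (adjusted p = 9.34e-06) and by 0.81 ± 0.11 in RVF (adjusted p = 5.84e-05). A further Hadha probe set, of lower intensity, gave -0.98 and -0.91. Its partner Hadhb, the thiolase subunit, whose promoter window shares the 200 bases in capitals above, fell by 0.88 ± 0.11 in RVF+ (adjusted p = 1.51e-05) and by 0.82 ± 0.11 in RVF (adjusted p = 8.29e-05).

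Hadh, which codes for the short-chain hydroxyacyl-CoA dehydrogenase of the second oxidation, had a larger fall. It was 2.47-fold lower in RVF+ (-1.30 ± 0.17, adjusted p = 2.35e-05) and 2.22-fold lower in RVF (-1.15 ± 0.18, adjusted p = 0.00023). RVF+ 8 stood at 9.4, under the 10.34 to 10.7 of the other RVF+ arrays, and without it the RVF+ difference was -1.08. Echs1, the short-chain enoyl-CoA hydratase, fell by 0.54 ± 0.12 in RVF+ (adjusted p = 0.00297) and by 0.47 ± 0.13 in RVF (adjusted p = 0.0192), a call lost without RVF 14 (0.0599) or RVF 15 (0.0554). Acaa2, the thiolase that cleaves off acetyl-CoA, fell by 0.96 ± 0.14 in RVF+ (adjusted p = 9.2e-05) and by 0.82 ± 0.15 in RVF (adjusted p = 0.00115).

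Auxiliary enzymes, which move or remove the double bonds of unsaturated chains so that the spiral can go on, fell in 3 of 3 cases in both conditions. Eci1 read 8.64, 9.22, 9.01, 9.62 and 9.09 in RVF+ 8 to 12 and 9.17, 9.08, 9.25 and 9.14 in RVF, against 10.05, 10.19 and 10.33 in CON (lowest, median, highest). The groups were far apart, and even RVF+ 11 was well under the lowest CON array. Eci1, in whose window above 1 half-site lies 94 bases before the start, was 2.12-fold lower in RVF+ (-1.09 ± 0.12, adjusted p = 5.06e-06) and 2.06-fold lower in RVF (-1.04 ± 0.13, adjusted p = 2.06e-05).

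Eci2, a related isomerase, fell by 0.88 ± 0.10 in RVF+ (adjusted p = 7.42e-06) and by 0.75 ± 0.11 in RVF (adjusted p = 8.75e-05). Decr1, the mitochondrial 2,4-dienoyl-CoA reductase, stood at 7.61, 7.93, 7.59, 8.82 and 7.93 in RVF+ 8 to 12 and at 7.89, 7.76, 7.8 and 8.22 in RVF, against 8.76, 8.89 and 9.14 in CON (lowest, median, highest). RVF+ 11 lay within the CON range while the other RVF+ arrays were far below it. Decr1 fell by 0.97 ± 0.17 in RVF+ (adjusted p = 0.000311) and by 1.03 ± 0.18 in RVF (adjusted p = 0.000569).

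Ehhadh, the peroxisomal bifunctional enzyme that carries out hydration and the second oxidation there, changed more than any other of the 28 genes in both comparisons. Its levels were 4.66, 5.11, 5.54, 5.87 and 4.92 in RVF+ 8 to 12, and 5.37, 5.19, 5.36 and 5.16 in RVF, against 6.37, 6.6 and 6.97 (lowest, median, highest) in CON. No RVF+ or RVF array reached CON. Ehhadh was 2.69-fold lower in RVF+ (-1.43 ± 0.17, adjusted p = 1.05e-05) and 2.59-fold lower in RVF (-1.37 ± 0.18, adjusted p = 4.4e-05), and its RVF+ and RVF means of 5.22 and 5.27 lie below the median level of all genes (5.57), where RMA narrows differences.

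Electron transfer, which hands electrons from the dehydrogenases to the respiratory chain, fell in 3 of 3 genes in RVF+ and in 2 of 3 in RVF. Etfdh codes for the membrane oxidoreductase that passes them to ubiquinone. It stood at 9.04, 9.61, 9.48, 9.95 and 9.7 in RVF+ 8 to 12 and at 9.68, 9.71, 9.76 and 9.74 in RVF, against 10.23, 10.33 and 10.46 in CON (lowest, median, highest). The groups did not overlap with CON, and the RVF arrays were nearly identical to each other. Etfdh fell by 0.79 ± 0.11 in RVF+ (adjusted p = 5.48e-05) and by 0.62 ± 0.12 in RVF (adjusted p = 0.00133). Of the subunits of the flavoprotein itself, Etfb fell by 0.68 ± 0.12 in RVF+ (adjusted p = 0.000492) and by 0.49 ± 0.13 in RVF (adjusted p = 0.0144), and Etfa fell by 0.49 ± 0.13 in RVF+ (adjusted p = 0.0085). Etfa in RVF differed by -0.32 ± 0.14 (adjusted p = 0.132), and passed without RVF+ 8 (adjusted p = 0.00508).

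Ucp3, an inner-membrane carrier that rises with fatty acid supply in muscle, varied widely in every group. It read 5.12, 5.87, 4.89, 6.04 and 5.54 in RVF+ 8 to 12 and 4.91, 6.05, 5.21 and 5.79 in RVF, against 5.41, 6.58 and 6.92 in CON (lowest, median, highest). CON 7 was the lowest CON array and overlapped with both conditions. Ucp3, with half-sites 155 and 50 bases before the start in the window above, fell by 0.89 ± 0.26 in RVF+ (adjusted p = 0.0155) and by 0.90 ± 0.28 in RVF (adjusted p = 0.0338). The RVF+ call was lost without RVF+ 10 (adjusted p = 0.0519) and with array weights (0.0509), and the RVF call in 6 of the 16 fits that left out 1 array, those without CON 1, 2, 4 or 5 or without RVF 13 or 15.

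RVF+ was not told apart from RVF for any of the 28 genes. At the threshold 0 of 28 were lower and 0 higher, as for all genes (0%), with 1 of 28 and 1242 of all 17245 genes at an unadjusted limma p under 0.05. Differences ran from -0.37 for Acads to 0.25 for Slc27a1, with a median of -0.119, 22 below 0 and 6 above. Without RVF+ 8 the count was 11 below and 17 above, with a median of 0.0188. The 95% intervals reach from -0.69 to 0.63 over the genes, with a median half-width of 0.295, so differences of that size between RVF+ and RVF could not be seen here.

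**Figure D3:**
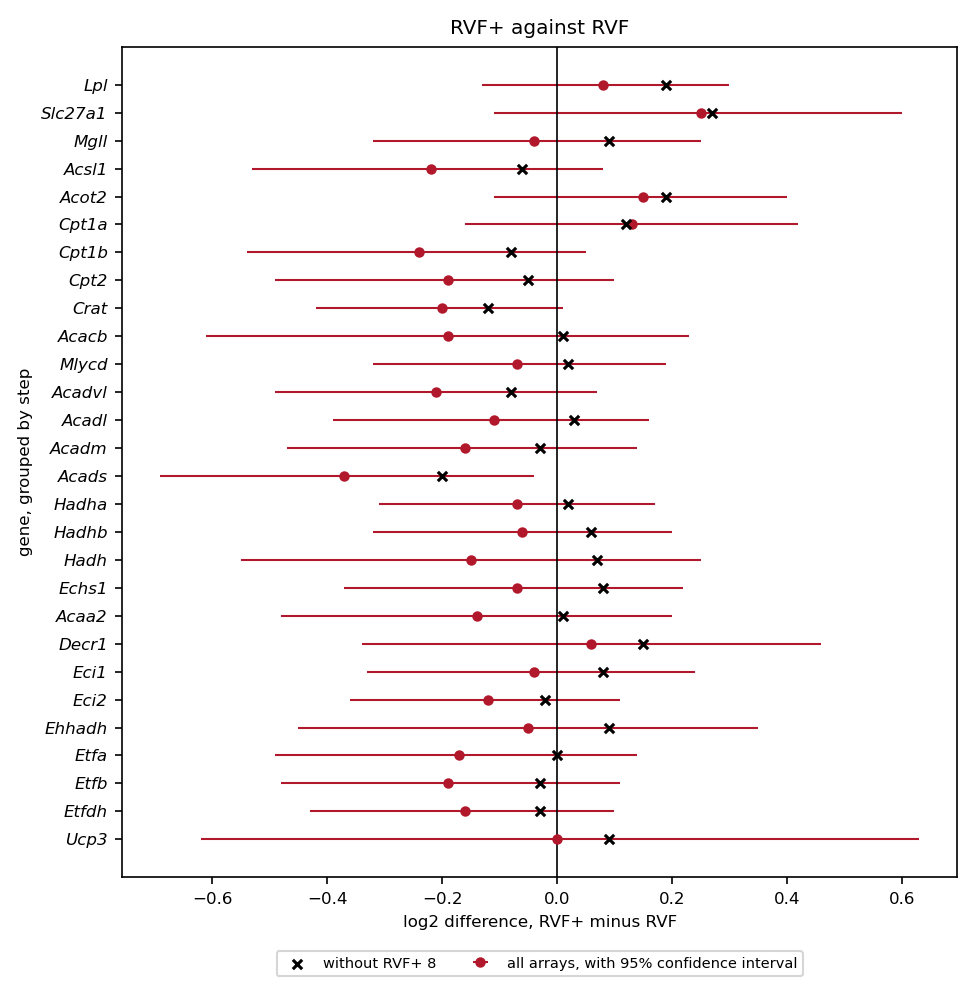
Log2 difference of RVF+ from RVF (horizontal axis) for the 28 measured genes (vertical axis), with 95% intervals, over all 5 RVF+ arrays and without RVF+ 8. The interval of Acads, -0.69 to -0.04, is the only one over all arrays that leaves out 0, and most points move to the right without RVF+ 8.

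Cell markers moved beside the 28 genes. Of 14 cardiomyocyte markers, all measured, 7 fell and 1 rose in RVF+ (median -0.292), where 13.6% of all genes fell and 14.1% rose. In RVF 1 fell and 1 rose (median -0.115), where 8.29% of all genes fell and 8.86% rose. Their summed intensity was 34891 to 51956 in RVF+, 50734 to 53295 in RVF and 56418 to 59376 in CON. On the log2 scale their mean deviation was -0.822 in RVF+ 8, -0.327 to -0.15 in the other RVF+ arrays and -0.179 to -0.0908 in RVF, where the 28 genes averaged -1.30, -0.898 to -0.429 and -0.773 to -0.681. As list averages, the 28 genes were thus lower than these markers within every RVF+ and RVF array, but the lists overlapped gene by gene. Differences in RVF+ ran from -1.34 to 0.36 for the markers and from -1.43 to -0.30 for the 28 genes. In RVF they ran from -0.78 to 0.45 and from -1.37 to -0.25. In a tissue sample, fewer cells of a type and less RNA per cell cannot be told apart.

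Markers of several other cell types rose, where 14.1% of all genes rose in RVF+ and 8.86% in RVF. Of 11 macrophage markers measured, 10 rose in RVF+ and 7 in RVF, with a summed intensity of 2113 to 5921 in RVF+, 1775 to 2493 in RVF and 1058 to 1541 in CON, the 5921 being RVF+ 8. Of 10 fibroblast markers, 7 rose in RVF+ and 6 in RVF, with sums of 8190 to 10113 in RVF+, 8033 to 9358 in RVF and 6472 to 7548 in CON. Red cell markers rose in 3 of 4 cases in RVF+ and 0 of 4 in RVF, and smooth muscle and pericyte markers in 4 of 7 and 3 of 7. Endothelial markers, of cells that also take up fatty acids, rose in 2 of 8 cases in RVF+ and 0 of 8 in RVF. Adipocyte markers, of cells that also express Lpl, Acsl1 and Mgll, passed in 0 of 7 cases in both conditions. Lymphocyte markers rose in 1 of 5 cases in each condition. Skeletal muscle markers rose in 2 and fell in 1 of 5 in RVF+ and rose in 1 of 5 in RVF. Atrial markers rose in 1 of 5 in RVF+, and rose in 1 and fell in 2 of 5 in RVF. The small counts of endothelial, lymphocyte, skeletal muscle and atrial markers are not read as changes of cell type. The part of these cells in the falls of the 28 genes was not tested.

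**Figure D4:**
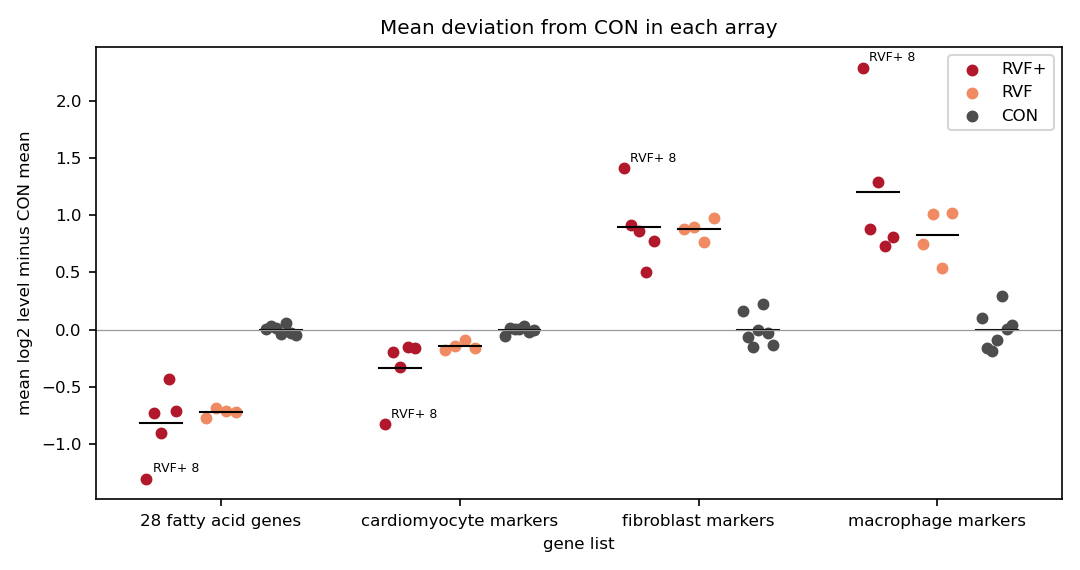
Mean log2 deviation from the CON mean over the 28 genes, and over cardiomyocyte, fibroblast and macrophage markers (vertical axis, log2), with 1 point per array in RVF+, RVF and CON and lines at the group means. RVF+ 8 lies lowest for the 28 genes (-1.30) and for cardiomyocyte markers (-0.822) and highest for macrophage markers (2.29).

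Other genes of fatty acid metabolism, 89 listed and 78 measured, mostly had differences below 0 (62 of 78 in RVF+ and 63 in RVF). In RVF+ 46 of 78 fell and 2 rose, where 13.6% of all genes fell and 14.1% rose. In RVF 24 fell, 1 rose and 53 did not pass, where 8.29% of all genes fell and 8.86% rose. The median was -0.32 in RVF+ and -0.257 in RVF, against -0.0118 and -0.00868 over all genes. In RVF+ against RVF 0 passed. There 10 of 78 and 1242 of all 17245 genes were at an unadjusted limma p under 0.05.

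Among other mitochondrial oxidation genes, 9 of 11 fell in RVF+ and 6 of 11 in RVF, where 13.6% and 8.29% of all genes fell. Those that fell in both include Ech1, a dienoyl-CoA isomerase, at -1.03 ± 0.14 in RVF+ (adjusted p = 4.12e-05) and -1.15 ± 0.15 in RVF (adjusted p = 4.4e-05). Pccb and Mcee, which lead propionyl-CoA from odd chains to the citric acid cycle, fell by 0.84 and 0.77 in RVF+ and by 0.80 and 0.59 in RVF. Of 4 further carnitine genes only Slc25a20, the carrier that exchanges acylcarnitine for carnitine across the inner membrane, passed, and it fell by 0.77 ± 0.10 in RVF+ (adjusted p = 2.35e-05) and by 0.59 ± 0.10 in RVF (adjusted p = 0.000731). Crot and Cpt1c gave 0.18 and 0.03 in RVF+ and 0.14 and 0.05 in RVF, and did not pass.

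Peroxisomal genes fell in 7 of 9 cases in RVF+ and 3 of 9 in RVF, where 13.6% and 8.29% of all genes fell. Pecr, a trans-enoyl-CoA reductase, stood at -0.74 in RVF+ and -0.70 in RVF, both passing. Abcd3, a transporter of the peroxisomal membrane, fell by 0.51 in RVF+ and by 0.51 in RVF, while Abcd2 was too dim for a size to be read, with means of 3.83 in RVF+, 4.11 in RVF and 4.40 in CON, below the array medians of 4.76 to 4.87.

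Genes of triglyceride synthesis, storage and lipolysis fell in 7 of 14 cases in RVF+ and 6 of 14 in RVF, where 13.6% and 8.29% of all genes fell. Of the lipolysis genes in that list, Pnpla2, the first triglyceride lipase, gave -0.20 in RVF+ (adjusted p = 0.264) and -0.33 in RVF (adjusted p = 0.0952), and its activator Abhd5 gave 0.12 in RVF+ and 0.13 in RVF. Lipe, the hormone-sensitive lipase, gave -0.07 in RVF+ (adjusted p = 0.763) and fell by 0.45 in RVF (adjusted p = 0.0472). G0s2, an inhibitor of Pnpla2, gave 0.11 in RVF+ and 0.22 in RVF, and did not pass. Agpat3, an acyltransferase of glycerolipid synthesis, fell by 1.08 ± 0.11 in RVF+ (adjusted p = 3.03e-06) and by 0.97 ± 0.12 in RVF (adjusted p = 2.23e-05). Lpin1, a phosphatidate phosphatase, fell by 1.00 in RVF+ and by 0.99 in RVF, and Dgat1, which adds the last chain of triglyceride, by 0.68 in RVF+ and by 0.67 in RVF.

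The only rises among these lists were of single activation genes, and in RVF+ more genes of that list fell than rose. Acsl5, an acyl-CoA synthetase, rose by 0.58 ± 0.12 in RVF+ (1.49-fold, adjusted p = 0.00148) and by 0.39 ± 0.13 in RVF (1.31-fold, adjusted p = 0.0408), beside the fall of Acsl1. Acsl4, another synthetase, rose by 0.52 ± 0.18 in RVF+ (adjusted p = 0.0342) and gave 0.17 in RVF. Acsl6 fell by 0.78 in RVF+ (adjusted p = 0.00594) and gave -0.08 in RVF (adjusted p = 0.84), and the thioesterase gene Acot13 fell by 0.85 in RVF+ and gave -0.57 in RVF (adjusted p = 0.051). In all, 4 of 8 such genes fell and 2 rose in RVF+, where 13.6% of all genes fell and 14.1% rose. In RVF 1 of 8 fell and 1 rose, where 8.29% of all genes fell and 8.86% rose.

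Of 10 further genes of vascular lipolysis and transport, 4 fell in RVF+ and 1 in RVF, where 13.6% and 8.29% of all genes fell. Among those that did not pass in RVF+ were Gpihbp1 (0.33), which anchors Lpl at the vessel wall, and the fatty acid transport and binding genes Slc27a4 (0.18), Fabp4 (0.23) and Fabp5 (0.20). In RVF they gave -0.47, 0.21, -0.01 and -0.12 in that order, none passing. Angptl4 gave 0.71 in RVF+ (adjusted p = 0.119) and 0.15 in RVF (adjusted p = 0.824). Got2, a mitochondrial transaminase also described at the cell surface as a fatty acid binding protein, fell by 0.63 in RVF+ and by 0.47 in RVF. Lmf1, a factor for the maturation of lipases, fell by 0.28 in RVF+ and gave -0.15 in RVF, and Vldlr, a lipoprotein receptor, fell by 0.46 in RVF+ and gave -0.14 in RVF. Of ketone body genes only Bdh1 was measured, and it gave -0.14 in RVF+ and 0.20 in RVF, neither passing.

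Genes listed as regulators of the route fell in 9 of 12 cases in RVF+ and 4 of 12 in RVF, where 13.6% and 8.29% of all genes fell. The list was not split into activators and repressors. The 4 that fell in RVF were Rxra, Nrip1 (-0.29), Ncor1 (-0.26) and Pdk4 (-0.62), and no gene for a PPAR or ERR receptor was among them. In RVF+ Nrip1 gave -0.44 and Ncor1 -0.27, both passing, and Pdk4 gave -0.32 (adjusted p = 0.109). Rxra, the partner receptor of PPAR, fell by 0.50 ± 0.08 in RVF+ (adjusted p = 0.000332) and by 0.46 ± 0.09 in RVF (adjusted p = 0.00169). Ppara, the alpha form of PPAR, passed in RVF+ at -0.90 (adjusted p = 0.00216) and gave -0.50 in RVF (adjusted p = 0.11). Ppargc1a passed in RVF+ at -0.81 (adjusted p = 0.00612) and gave -0.63 in RVF (adjusted p = 0.0533). Ppargc1b, a coactivator of ERR and PPAR, fell by 0.87 ± 0.16 in RVF+ (adjusted p = 0.000534) and gave -0.49 ± 0.17 in RVF (adjusted p = 0.054). Esrrg, the gamma form of ERR, fell by 0.62 ± 0.11 in RVF+ (adjusted p = 0.000307) and gave -0.28 ± 0.11 in RVF (adjusted p = 0.0969). Among genes that sense energy or set malonyl-CoA, 5 of 9 fell in RVF+ and 2 of 9 in RVF, beside the same shares of 13.6% and 8.29%. The median of that list was -0.30 in RVF+ and -0.101 in RVF, where 7 of 9 did not pass. Prkab1 and Prkag1, which code for subunits of AMP-activated kinase, fell by 0.78 and 0.30 in RVF+, and gave -0.61 (passed) and -0.16 (adjusted p = 0.155) in RVF. Acsf3, a malonyl-CoA synthetase of mitochondria, fell by 0.85 in RVF+ and by 0.70 in RVF.

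**Figure D5:**
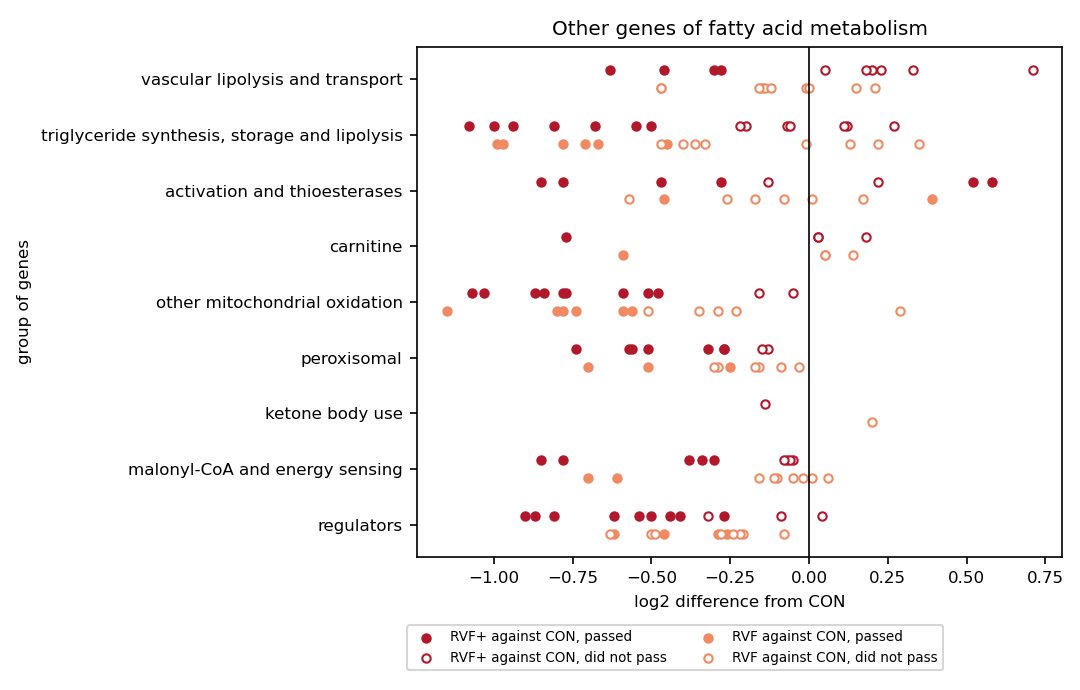
Log2 difference from CON in RVF+ and RVF (horizontal axis) of the 78 other measured genes of fatty acid metabolism, 1 point per gene and comparison, grouped by role (vertical axis), with filled points for those that passed. In RVF+ 46 filled points lie below 0 and 2 above, and in RVF 24 lie below and 1 above.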

How the data were processed

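Right ventricular wall RNA of 16 samples was measured, 1 array each. For every probe set and array the authors deposited an intensity on a linear scale, summarised by RMA per the submitters' processing notes, and these deposited intensity values were converted to log2 here. Software version, array build and genome build were not given in the sources used here. RMA narrows differences of dim probe sets, no detection calls were used, and precision is limited by the number of arrays.

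The array annotation gives 1 symbol to 18644 of 29214 probe sets, several to 962, and does not list 9608. The identifiers of 18460 matched RefSeq genes of assembly GRCr8, and 0 symbols changed. For 879 genes with several probe sets the brightest on average was used, giving 17245 genes, and low values were kept.

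Group means were fitted to all 16 arrays with limma 3.58.1 (lmFit and eBayes) in R 4.3.3, with 13 residual and 4.45 prior degrees of freedom, with a common spread per gene for the 3 groups. All pairs of groups were compared, and two-sided p-values were adjusted by the Benjamini-Hochberg method over all genes at a threshold of 0.05. The procedure was tested on simulated data. Groups follow the condition given in the labels.

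The members, the other lists and the markers were chosen with earlier results of these data known, so no list was tested as a set. Differences are given for all members. Values in every array are given for those with the smallest p of their step in RVF+ or RVF against CON. Cpt1a, Cpt1b, Acads and Decr1 were shown array by array after their values were seen. Of the other pathway genes, the 3 of each list with the smallest p in RVF+ or RVF against CON were named. Acsl4, Acaca, Pnpla2, Lipe, Abhd5, G0s2, Gpihbp1, Angptl4, Slc27a4, Fabp4, Fabp5, Ppara, Ppargc1a, Nrip1, Ncor1 and Pdk4 were named after their values were seen. Alternatives tried were quantile normalization, centring, a filter on dim genes, averaging probe sets per gene, fitting only the groups compared, trend and robust moderation (statmod 1.5.0), array weights and leaving out each array.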

Additional observations from a re-analysis of the deposited data

Results flagged for a closer look

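In 87 sets of values (the 28 members and their mean, in each of 3 groups), the array farthest from the others was compared with the group's range by Dixon's test, which flags about 5% of groups by chance, and 6 were found. In RVF+ 8, Cpt2 stood at 8.74 (9.36 to 9.57 in the other RVF+ arrays), Hadh at 9.4 (10.34 to 10.7) and Etfa at 9.98 (10.69 to 10.97). In RVF+ 11, Decr1 stood at 8.82 (7.59 to 7.93 in the other RVF+ arrays). In CON 4, Lpl stood at 12.18 (12.06 to 12.11 in the other CON arrays) and Cpt1a at 8.25 (8.61 to 8.86). The mean of the members was not flagged in any group, so RVF+ 8 was not flagged on that average.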

How the results depend on the processing

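No member reversed its direction from CON under any alternative, and no member passed in RVF+ against RVF. Leaving out 1 array in turn gave 25 to 28 members lower and 0 to 0 higher in RVF+ against CON (medians -0.948 to -0.765), 21 to 28 lower and 0 to 0 higher in RVF against CON (medians -0.75 to -0.695), and 0 to 0 lower and 0 to 0 higher in RVF+ against RVF (medians -0.204 to 0.0188). The lowest counts came without RVF+ 10 and without RVF 15. The calls lost in RVF were those of Ucp3, Cpt1a, Acads and Echs1, 17 in all over the 16 fits, and the cause was not tested. Over all genes, RVF against CON gave 1429 lower and 1528 higher genes as reported, 2026 and 2440 with only the 2 groups fitted, 2214 and 2474 with array weights, in which RVF+ 8 has a weight of 0.174, and 1932 and 2315 without RVF+ 8. Without RVF+ 12, 3 genes, no members, were higher in RVF+ than in RVF. Centring gave 60.1% lower among the calls of RVF+ against CON, against 49.2% as reported. No paired analysis was possible because the labels number the samples 1 to 16 without repeats across groups. The small groups and the dim signals of Ehhadh, Ucp3, Abcd2 and Cpt1c limit what can be read from these differences.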
